A study of Mus musculus with 14 samples.

Results

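The genes of fatty acid oxidation and ketogenesis were examined in the colon of mice with and without *miR-29a* and *miR-29b-1*. The set held 32 named genes of mitochondrial and peroxisomal beta-oxidation, ketone body metabolism and the PPAR pathway, with Cpt1a as its marker gene. All 32 were matched by symbol among the 54378 genes that both count tables shared, out of 55889 genes in the table of untreated mice and 54721 in the table of DSS-treated mice. RNA-sequencing (RNA-seq) covered 14 mice in 4 groups. These were 4 WT mice and 4 *MiR-29ab1*-/- mice without treatment, and 3 WT mice and 3 *MiR-29ab1*-/- mice after 3 days of 3.5% dextran sodium sulfate (DSS), a sulfated polysaccharide given in drinking water that injures the colonic epithelium.

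The mice were C57BL/6N by the labels, and the study's methods give a C57BL/6 background, littermate controls and an age of 8 to 12 weeks. The study also reports leaving a WT sample and a *MiR-29ab1*-/- sample out of its analysis. It does not say from which experiment they came or whether they are among the mice counted here. The deletion was germline, so every cell type of the knockout lacked the miR-29a/b-1 cluster. Nothing states that tissue of several mice was pooled, and nothing in the labels says more of how replicates were separated than the mouse itself, so that p-values measure the spread between these samples. DSS and untreated mice were given as separate experiments, in separate count tables with separate gene models. The labels do not say whether they were sequenced together. An effect of DSS and an effect of the experiment therefore cannot be told apart in any comparison between them. In bulk tissue, fewer cells of a type and less RNA per cell cannot be told apart either.

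Fatty acids are activated to acyl-CoA, carried into mitochondria by the carnitine shuttle and shortened in repeated cycles by dehydrogenases, hydratases and thiolases, whose electrons pass to the electron transfer flavoprotein. Very long and branched chains begin in peroxisomes. The acetyl-CoA formed can be made into ketone bodies. Colonocytes draw much of their energy from butyrate, a short-chain fatty acid made by gut bacteria, through the same mitochondrial pathway. PPAR alpha and PPAR gamma are nuclear receptors that respond to fatty acids and drive many of these genes, and PGC-1 alpha, the product of Ppargc1a, is a coactivator of them.

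Between 14231157 and 18185020 reads were counted in each untreated library and between 20076719 and 23153149 in each DSS library. Levels are given as CPM, the counts of a gene per 1000000 counts of its library, with library totals scaled by the TMM method over all 14 mice. The annotated genes of the deleted miRNAs, Mir29a and Mir29b-1, held 0 or 1 count in every library, WT included, so they could not check the genotype. Lncpint, a long non-coding RNA gene near the deleted cluster, held 7 to 23 counts in untreated WT mice against 1386 to 2889 in untreated *MiR-29ab1*-/- mice, and 6 to 14 against 706 to 1144 after DSS, and the genotypes did not overlap. *MiR-29ab1*-/- DSS mouse 2 stood apart, with 20.2% of its counts from mitochondrially encoded genes and the lowest TMM factor, 0.768. The labels name small intestinal crypts and the study names colon. The summed level of 7 absorptive colonocyte markers was 2288 to 10597 CPM and that of 9 small intestine markers 25.1 to 108 CPM, with Apoa4 at 0.0988 CPM or less in every mouse. The 6 smooth muscle markers summed to 4.06 CPM or less. Macrophage and neutrophil markers summed to 1.56 to 10.1 CPM without DSS, 3.78 to 11.2 in WT mice after DSS and 7.29 to 49.3 in *MiR-29ab1*-/- mice after DSS. Adipoq, which defines adipocytes, was at 0.0494 CPM or less and Lep was at 0. The 7 adipocyte markers together summed to 1.93 to 3.95 CPM in untreated WT mice and 2.47 to 3.37 in untreated *MiR-29ab1*-/- mice. After DSS they summed to 4.87 to 7.74 and 5.23 to 10.6 CPM.

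The deleted cluster encodes miR-29a and miR-29b, which share a seed, the 7 bases by which a miRNA pairs with its targets. The mature sequences from RefSeq (GRCm38.p6) are shown with the seed, bases 2 to 8, in capitals. Mir29a lies at chr6:31062673-31062694 and Mir29b-1 at chr6:31063025-31063047, both on the minus strand. A further copy of the miR-29b sequence lies outside the cluster, as Mir29b-2 on chromosome 1.
miR-29a-3p: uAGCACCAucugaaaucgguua
miR-29b-3p: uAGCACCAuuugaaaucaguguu

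The 3′ UTR of each gene (the longest among its coding transcripts in GENCODE vM21, GRCm38) was searched on the sense strand for TGGTGCT, the complement of that seed. The site was found in 5 of 32 genes, 15.6%, beside 2758 of 21037 genes, 13.1%, over all genes with a 3′ UTR. The median 3′ UTR length was 598.5 bases in the set and 960 bases over all genes. Cpt1a, Acadl, Hadhb, Pparg and Acsl1, whose values are given below, held none. The 5 genes with a site were Cpt2, Ehhadh, Bdh1, Ppargc1a and Angptl4. One site of each is printed so that it can be read beside the genotype values of its gene. The site is in capitals with its surrounding bases in lower case. The Ehhadh and Bdh1 sites shown carry an A after the match, which makes them 8mer sites, and Ehhadh held 2 sites and Bdh1 held 4.
Cpt2 (chr4:107904134-107904140, minus strand): aaactagttccTGGTGCTtgagcagccag
Ehhadh (chr16:21761950-21761956, minus strand): gctggtggtggTGGTGCTaaatggtcagc
Bdh1 (chr16:31457891-31457897, plus strand): taggacaggatTGGTGCTatgcttggtgc
Ppargc1a (chr5:51454865-51454871, minus strand): ggtacccgaacTGGTGCTttagaaatgcg
Angptl4 (chr17:33774987-33774993, minus strand): ggatacactcaTGGTGCTgttgtaggtgc

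The genes with a site did not pass the test between genotypes. Without DSS the log2 fold change of *MiR-29ab1*-/- over WT was -0.17 for Cpt2 (95% interval -0.40 to 0.07), -0.15 for Ehhadh (-0.46 to 0.15), -0.01 for Bdh1 (-0.24 to 0.23) and 0.19 for Ppargc1a (-0.08 to 0.47). After DSS it was -0.03 for Cpt2 (-0.31 to 0.25), -0.02 for Ehhadh (-0.34 to 0.30), 0.03 for Bdh1 (-0.18 to 0.23), -0.34 for Ppargc1a (-0.67 to -0.01) and -0.36 for Angptl4 (-1.13 to 0.41). For Bdh1, which held the most sites, the upper bound of the interval was 0.23 in both experiments. The DNA element that PPARs bind as partners of RXR, a direct repeat of AGGNCA half-sites with 1 base between them (DR1), was searched on both strands of the RefSeq promoters, from 250 bases before to 50 after each start. It was in none of the 28 member genes with a promoter in that table, and in 0.451% of 27025 genes with a promoter. No match says only that these letters are not in this window.

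Per length of gene, the set ran from near silence to high levels in untreated WT mice. Acads, the short-chain acyl-CoA dehydrogenase that takes butyryl-CoA, led with 102 ± 10.2 RPKM (CPM per 1000 bases of gene length, SD, n = 4). Etfa, a subunit of the electron transfer flavoprotein, followed at 72.7 ± 2.93, Acaa2, the mitochondrial thiolase, at 72.0 ± 18.1, Acadl, the long-chain acyl-CoA dehydrogenase, at 67.1 ± 5.22 and Hadh, the short-chain hydroxyacyl-CoA dehydrogenase, at 55.4 ± 5.68. The spread of Acaa2 covered the means of Etfa and Acadl, so these neighbours in the order do not differ from it beyond their spread. At the low end stood the acyl-CoA synthetase Acsl1 at 4.08 ± 0.320, the receptor Ppara at 4.11 ± 0.911 the pyruvate dehydrogenase kinase Pdk4 at 1.00 ± 0.621 and Angptl4 at 0.141 ± 0.0420. The carnitine palmitoyltransferase Cpt1a was at 32.4 ± 5.19. Gene lengths differed between the tables for Cpt1a (7642 against 4300 bases), Eci1, Angptl4 and Acaa2, so RPKM was compared only within an experiment and folds were taken from counts. The order by RPKM also rests on the annotated lengths, such as 2269 bases for Acads and 8730 for Hadha. By CPM in untreated WT mice, Hadh (276) and Hadha (275) stood above Acads (233).

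Without DSS, loss of miR-29ab1 left the set near its WT level, and no member passed an adjusted p of 0.05. Pparg, Hadhb and Acaa1b were the members past an unadjusted p under 0.05, all lower in *MiR-29ab1*-/- mice. Cpt1a, the gatekeeper of mitochondrial entry, was at 277, 196, 279.7 and 236 CPM in the WT mice and at 216, 248, 221 and 306 CPM in the *MiR-29ab1*-/- mice. The groups overlapped fully, and the log2 fold change was 0.0015 (SE 0.154, edgeR quasi-likelihood adjusted p = 0.9995).

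Pparg, the PPAR gamma receptor, was at 67.1, 68.4, 71.8 and 81.2 CPM in WT mice and at 55.1, 54.8, 61.7 and 60.5 CPM in *MiR-29ab1*-/- mice. Every knockout mouse lay below every WT mouse. The log2 fold change was -0.31 (SE 0.088, edgeR adjusted p = 0.9995). Hadhb, the thiolase subunit of the trifunctional protein, was at 127, 121, 146 and 128 CPM in WT mice and at 116, 108, 112 and 115 CPM in *MiR-29ab1*-/- mice, again without overlap. Its log2 fold change was -0.21 (SE 0.089, edgeR adjusted p = 0.9995). It lost the unadjusted call in 5 of the 8 fits that left out 1 mouse, with log2 fold changes of -0.14 (without WT mouse 3) to -0.23, while those of Pparg and Acaa1b held in all 8. Its partner subunit Hadha gave -0.09 (SE 0.097).

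Acaa1b, a peroxisomal thiolase, was at 10.1, 4.86, 9.75 and 8.53 CPM in WT mice and at 3.53, 6.58, 5.06 and 3.96 CPM in *MiR-29ab1*-/- mice. WT mouse 2 fell within the knockout range. The log2 fold change was -0.80 (SE 0.274, edgeR adjusted p = 0.9995). Acaa1b has a close paralogue, Acaa1a, and 35.5% of the 50-base stretches of its longest transcript occur in Acaa1a transcripts. Acaa1a counts were far higher, at 140.5 against 8.32 CPM on average in WT mice, so how reads were divided between the pair is uncertain.

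Across the set, 24 of the 31 members tested had a negative log2 fold change and 7 a positive one, with a median of -0.09 and a range of -0.80 to 0.56. The median over all 15441 genes tested was -0.0016. With edgeR, 0 members passed an adjusted p of 0.05, beside 3 of all genes, 0.0194%. At an unadjusted p under 0.05, 0 members were higher and 3 lower, beside 2.09% and 1.58% of all genes. DESeq2 also gave 0 adjusted calls, and 3 at an unadjusted p under 0.05. Genotypes did not overlap for 0 members higher and 2 lower, beside 1.05% and 0.900% of all genes. By role, all 4 acyl-CoA dehydrogenases, all 5 hydratase, hydroxyacyl dehydrogenase and thiolase genes, all 3 electron transfer genes and all 3 peroxisomal genes had negative values, of which only Hadhb and Acaa1b were past an unadjusted p under 0.05. The synthetases Acsl1 and Acsl5 had positive values, 0.13 (SE 0.104) and 0.16 (SE 0.118).

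Angptl4, a PPAR target that encodes an inhibitor of lipoprotein lipase, was under the count minimum without DSS, with 6 to 13 counts in WT animals and 3 to 20 in knockouts. Its level was 0.498 ± 0.149 CPM in WT mice and 0.528 ± 0.517 in *MiR-29ab1*-/- mice (SD, n = 4 each), with p = 0.971 in a two-sided exact permutation test whose smallest possible p is 0.0286. *MiR-29ab1*-/- mouse 4 set the knockout mean. Without it the difference in mean CPM, knockout minus WT, was -0.226 in place of 0.0300.

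After DSS the genotypes again gave no member past an adjusted p of 0.05. Acadl was higher in *MiR-29ab1*-/- mice, and Acsl1 and Ppargc1a were lower, at an unadjusted p under 0.05. Acadl, the long-chain acyl-CoA dehydrogenase, was at 235, 285 and 258 CPM in WT mice and at 368, 369 and 325 CPM in *MiR-29ab1*-/- mice, without overlap. The log2 fold change was 0.44 (SE 0.113, edgeR adjusted p = 0.646). The unadjusted call held in all 6 fits that left out 1 mouse.

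Acsl1, the long-chain acyl-CoA synthetase, was at 22.6, 23.0 and 21.7 CPM in WT mice and at 13.4, 13.9 and 20.3 CPM in *MiR-29ab1*-/- mice. The knockout mice were all lower, though 1 lay close to the WT range. The log2 fold change was -0.50 (SE 0.171, edgeR adjusted p = 0.646), and the unadjusted call was lost without *MiR-29ab1*-/- DSS mouse 1 (log2 fold change -0.39) or mouse 2 (-0.41). The coactivator gene Ppargc1a was at 43.6, 40.5 and 38.5 CPM in WT mice and at 26.1, 31.9 and 38.7 CPM in *MiR-29ab1*-/- mice, which overlapped at their edge. Its log2 fold change was -0.34 (SE 0.145, edgeR adjusted p = 0.668), and the unadjusted call was lost in 5 of 6 fits that left out 1 mouse, down to -0.21 without *MiR-29ab1*-/- DSS mouse 1.

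*MiR-29ab1*-/- DSS mice 1 and 2, the lowest for Acsl1 and Ppargc1a and the highest for Acadl, had 14.8% and 20.2% of their counts from mitochondrially encoded genes against 7.43% in mouse 3. Their macrophage and neutrophil markers summed to 33.4 and 49.3 CPM against 7.29 CPM in mouse 3. The part of these in the genotype values was not tested.

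Etfa was at 177, 189 and 200.3 CPM in WT mice and at 215, 207 and 209.9 CPM in *MiR-29ab1*-/- mice. The groups did not overlap, with a log2 fold change of 0.15 (SE 0.092, edgeR adjusted p = 0.704). Cpt1a was at 407, 422 and 416 CPM in WT mice and at 387, 393 and 457 CPM in *MiR-29ab1*-/- mice. Its knockout values spread on both sides of the WT ones, with a log2 fold change of -0.01 (SE 0.108, edgeR adjusted p = 0.986).

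All 32 members were tested after DSS, with 15 positive and 17 negative values, a median of -0.01 and a range of -0.50 to 0.44, beside a median of -0.01 over all 14908 genes. With edgeR, 0 members passed an adjusted p of 0.05, beside 0.0134% of all genes. At an unadjusted p under 0.05, 1 member was higher and 2 lower, beside 3.98% and 3.25% of all genes. DESeq2 gave 0 adjusted calls, with 1 member higher and 1 lower at an unadjusted p under 0.05. Genotypes did not overlap for 2 members higher and 1 lower, beside 5.64% and 6.03% of all genes, which is near the members' share.

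**Figure D1:**
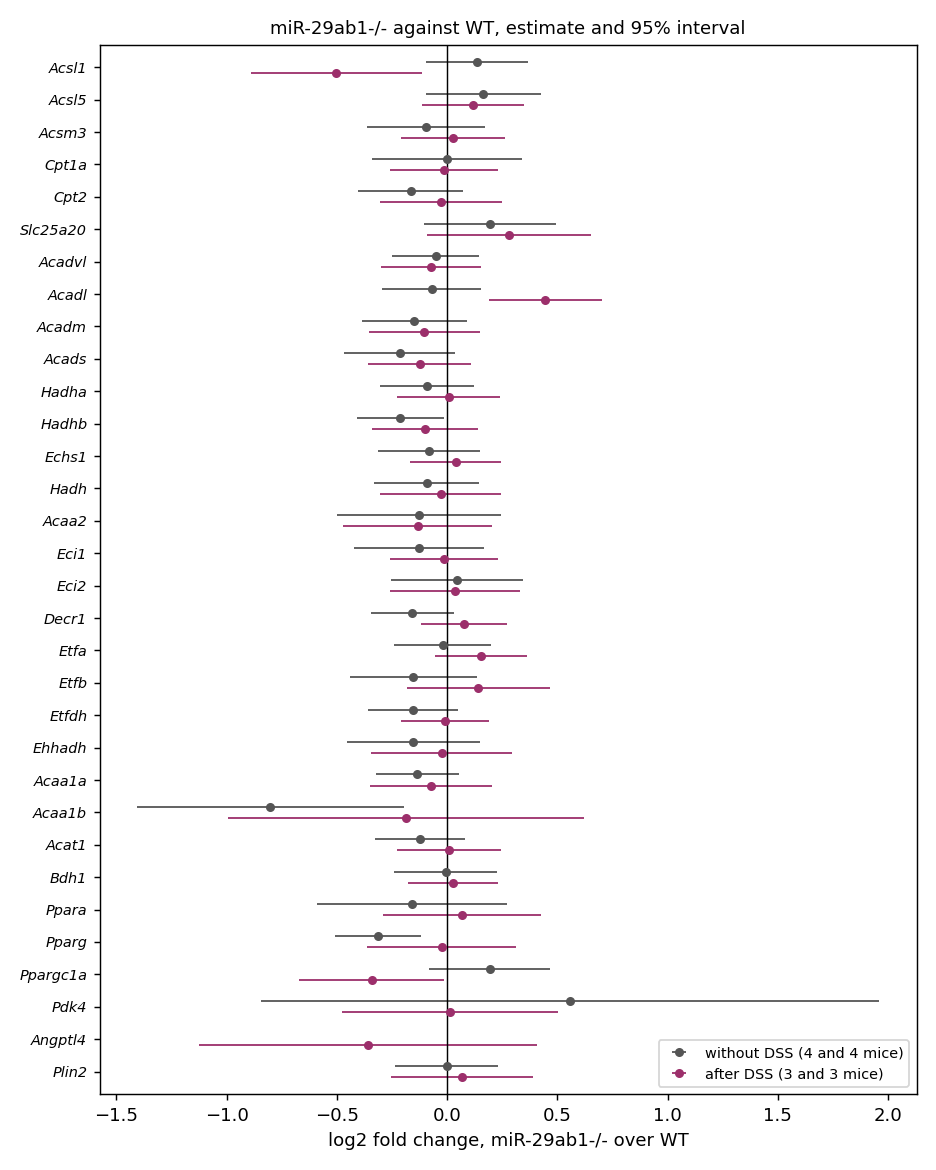
Log2 fold change of *MiR-29ab1*-/- over WT for each of the 32 genes, with its 95% interval, without DSS (grey, 4 and 4 mice) and after DSS (purple, 3 and 3 mice). Most intervals cross 0; Pparg, Hadhb and Acaa1b lie below 0 without DSS, and Acadl above and Acsl1 and Ppargc1a below 0 after DSS, none past an adjusted p of 0.05. Angptl4 was not tested without DSS.

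Between the untreated and the DSS experiment most of the set was higher relative to all genes in both genotypes. Relative to epithelial genes the values of 25 of 32 members in WT mice and 24 of 32 in *MiR-29ab1*-/- mice were negative, as were those of most genes. There the median of the members, -0.33 and -0.26, lay above the median of all genes, -0.85 and -0.93. On the TMM scale, 25 of 32 members rose and 1 fell in WT mice, beside 20.2% and 18.1% of all 16370 genes, and 26 rose and 1 fell in *MiR-29ab1*-/- mice, beside 23.2% and 22.7%. Angptl4 is among the rises, but it passed the count filter only through the DSS mice, where it is high. With at least 10 counts in every mouse it dropped out, which left 31 members. Of these, 22 rose and 1 fell in WT mice, beside 21.7% and 20.0% of all genes. In *MiR-29ab1*-/- mice 24 rose and 1 fell, beside 25.5% and 24.2% of all genes. Calls other than that of Angptl4 were lost as well in each genotype. The median log2 fold change was 0.50 in WT mice and 0.64 in *MiR-29ab1*-/- mice, against -0.02 and -0.03 over all genes. The summed level of the 32 genes was 3031 to 3362 CPM in untreated WT mice, 2963 to 3204 in untreated *MiR-29ab1*-/- mice, 4926 to 5143 in WT mice after DSS and 4903 to 5447 in *MiR-29ab1*-/- mice after DSS.

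Markers of epithelium in general and of absorptive colonocytes moved with this rise. The 8 genes of epithelium in general (Epcam, Cdh1 and keratins among them) summed to 9421 to 13054 CPM in untreated WT mice and 9797 to 12455 in untreated *MiR-29ab1*-/- mice, against 20167 to 22054 and 20884 to 24787 after DSS, and 8 of 8 passed the test in each genotype. The absorptive colonocyte markers summed to 3770 to 5912 and 2288 to 5409 CPM without DSS against 7403 to 10597 and 8148 to 10112 after it, and 6 of 7 rose in WT mice and 5 of 7 in *MiR-29ab1*-/- mice. Stem and proliferating cell markers fell, 2 of 5 in WT mice and 5 of 5 in *MiR-29ab1*-/- mice. The 6 goblet cell markers were divided, with 2 higher and 2 lower in WT mice and 2 higher and 3 lower in *MiR-29ab1*-/- mice. They summed to 21244.5 to 52140 and 43233 to 59107 CPM without DSS against 27268 to 39215 and 16639 to 35636 after it. The libraries were then scaled to the 8 epithelial genes in place of all genes, a choice made after the marker sums were seen. The median of the set was -0.33 in WT mice and -0.26 in *MiR-29ab1*-/- mice. In WT mice 3 members were higher and 15 lower, beside 2.93% and 69.2% of all genes. In *MiR-29ab1*-/- mice 4 were higher and 12 lower, beside 4.03% and 70.6% of all genes. On that scale the median of all genes was -0.85 and -0.93. Most genes were called lower there, so a fall of a member relative to epithelial genes, here and below, is not particular to it. Scaled to the 7 colonocyte genes, the medians were -0.57 and -0.51, against -1.09 and -1.17 over all genes. The set thus lay above the median gene and below the 8 epithelial and 7 colonocyte markers, and the part of these markers in its rise was not tested.

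**Figure D2:**
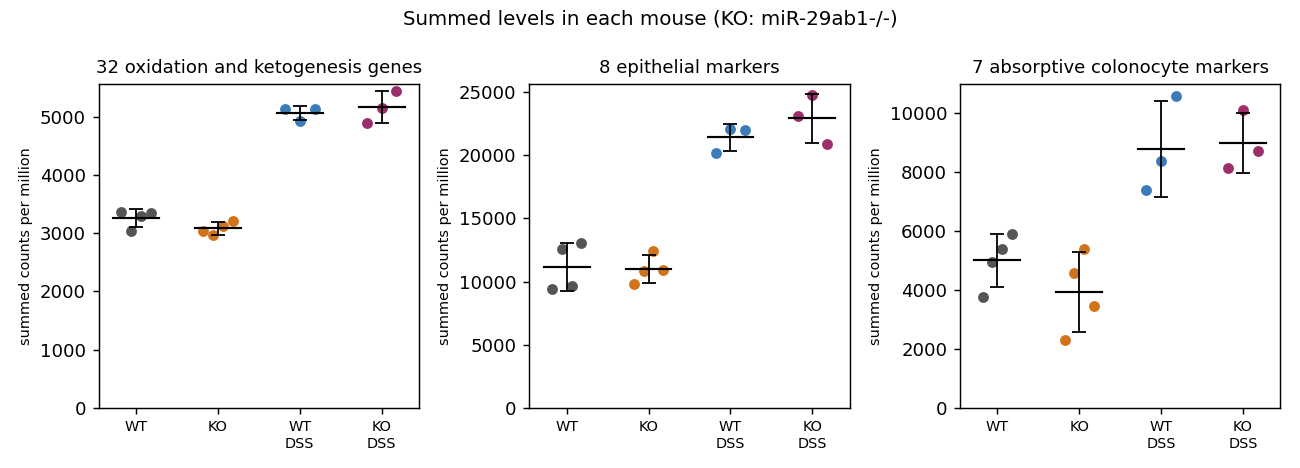
Summed level in each mouse, in CPM, of the 32 genes (left), 8 epithelial markers (middle) and 7 absorptive colonocyte markers (right). Points are mice, bars the mean and SD, and KO is *MiR-29ab1*-/-. All 3 sums were higher in every DSS mouse than in any untreated mouse.

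**Figure D3:**
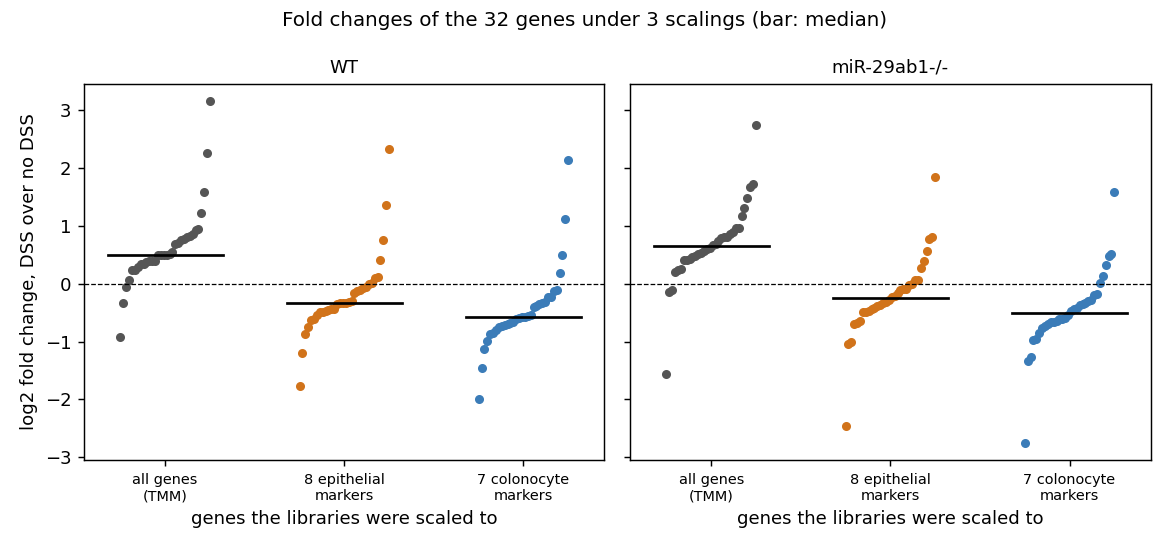
Log2 fold change of DSS over no DSS for each of the 32 genes (points, sorted) in WT (left) and *MiR-29ab1*-/- mice (right) with libraries scaled to all genes, 8 epithelial markers or 7 colonocyte markers. The median (bar) was above 0 on the first scale, at 0.50 and 0.64, and below 0 on the others. On those other scales the median of all genes was lower still.

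Activation of fatty acids was the step that divided. Acsl1 was at 46.3, 43.7, 38.2 and 42.6 CPM in untreated WT mice and 53.0, 49.3, 40.5 and 44.8 in untreated *MiR-29ab1*-/- mice, and fell to the values given above after DSS. No untreated mouse reached as low as any DSS mouse. The log2 fold change was -0.93 (SE 0.139, edgeR adjusted p = 0.000169) in WT mice and -1.56 (SE 0.144, adjusted p = 1.33e-06) in *MiR-29ab1*-/- mice, and it was negative on every scale. Acsl5, a synthetase of the intestinal epithelium, rose by 0.49 and 0.45 on the TMM scale and fell by 0.33 and 0.44 relative to epithelial genes, and Acsm3, a medium-chain synthetase, did not pass on the TMM scale, at 0.07 and 0.19, and fell relative to epithelial genes, at -0.75 (edgeR adjusted p = 0.000207) and -0.70 (adjusted p = 0.000294).

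All 3 genes of the carnitine shuttle rose on the TMM scale. Slc25a20, the carnitine-acylcarnitine translocase, was at 81.2, 89.8, 95.5 and 96.3 CPM in untreated WT mice and at 220.2, 276 and 317 CPM after DSS. In *MiR-29ab1*-/- mice it was at 80.3, 108, 97.2 and 129 CPM without DSS and at 272, 375 and 342 CPM after it. The change was 1.58 (SE 0.159, edgeR adjusted p = 4.66e-06) in WT mice and 1.67 (SE 0.159, adjusted p = 1.99e-06) in *MiR-29ab1*-/- mice. It also passed relative to the epithelial genes, at 0.75 (edgeR adjusted p = 0.00102) and 0.77 (adjusted p = 0.000724). Cpt1a rose by 0.75 (SE 0.140, edgeR adjusted p = 0.000879) in WT mice and 0.73 (SE 0.140, adjusted p = 0.000648) in *MiR-29ab1*-/- mice, and no DSS mouse overlapped an untreated one. Relative to the epithelial genes it stood at -0.11 and -0.16, neither past the test. Cpt2, the inner membrane carnitine palmitoyltransferase, rose by 0.81 and 0.95.

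The 4 acyl-CoA dehydrogenases, which open each cycle for a given chain length, rose in both genotypes on the TMM scale, by 0.54 to 0.95 in WT animals and 0.59 to 1.47 in knockouts. Acadl changed most. Its untreated levels were 119.8, 138, 136 and 144 CPM in WT mice and 122, 120.4, 120.0 and 149 CPM in *MiR-29ab1*-/- mice, all below every DSS mouse. The rise was 0.95 (SE 0.107, edgeR adjusted p = 1.45e-05) in WT mice and 1.47 (SE 0.108, adjusted p = 9.48e-08) in *MiR-29ab1*-/- mice. Relative to epithelial genes it passed in *MiR-29ab1*-/- mice alone, at 0.56 (edgeR adjusted p = 0.000698), and the difference between genotypes did not pass the interaction test.

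The 5 genes of the following steps, Hadha, Hadhb, Echs1, Hadh and Acaa2, rose in both genotypes on the TMM scale, by 0.49 to 0.85 in WT animals and 0.56 to 0.95 in knockouts. Hadhb rose by 0.76 (SE 0.092) and 0.88 (SE 0.092). Relative to epithelial genes the one that passed was Echs1, which was lower in WT mice, at -0.34 (edgeR adjusted p = 0.0477). Among the enzymes that handle double bonds, Decr1 rose by 0.93 and 1.16, Eci1 passed in *MiR-29ab1*-/- mice at 0.41 (-0.49 relative to epithelial genes, also past the test) and Eci2 did not pass in either genotype, at 0.23 and 0.23. Eci2 fell relative to epithelial genes, at -0.61 (edgeR adjusted p = 0.0133) and -0.67 (adjusted p = 0.00736). The median of all genes on that scale was lower, at -0.85 and -0.93. Of the electron transfer genes, Etfa rose by 0.50 and 0.68 and Etfdh, which hands the electrons to ubiquinone, by 0.38 and 0.53, whereas Etfb, the partner subunit of Etfa, did not pass at -0.05 and 0.25. Relative to epithelial genes Etfdh and Etfb fell in both genotypes and Etfa fell in WT mice.

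Among peroxisomal members, Acaa1a rose by 0.34 and 0.40 on the TMM scale and fell by 0.49 and 0.49 relative to epithelial genes. Ehhadh, the peroxisomal bifunctional enzyme, rose by 0.38 (edgeR adjusted p = 0.0498) in WT mice, whose groups overlapped, and 0.51 (adjusted p = 0.00969) in *MiR-29ab1*-/- mice on the TMM scale. The WT call was lost in 11 of 14 fits that left out 1 mouse. On the epithelial scale it stood at -0.49 and -0.39, not past the test. Acaa1b passed in *MiR-29ab1*-/- mice, at 0.85 (SE 0.330, edgeR adjusted p = 0.0459), where mice overlapped, and not in WT mice, at 0.24 (SE 0.323, adjusted p = 0.590). Without *MiR-29ab1*-/- DSS mouse 3, whose 14.2 CPM was the highest of the 14 mice, the *MiR-29ab1*-/- value was 0.29 (adjusted p = 0.449). Acat1, which condenses acetyl-CoA, rose by 0.34 in WT and 0.48 in *MiR-29ab1*-/- mice. Bdh1, which interconverts the ketone bodies acetoacetate and hydroxybutyrate, rose by 0.38 and 0.42, and both fell relative to epithelial genes.

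The regulators did not move as one. Pparg rose by 0.49 (SE 0.122, edgeR adjusted p = 0.00539) in WT mice, where DSS mice held 82.1, 96.3 and 126 CPM, and by 0.79 (SE 0.122, adjusted p = 0.000127) in *MiR-29ab1*-/- mice, where they held 104, 95.4 and 100.5 CPM. Relative to epithelial genes it fell in WT mice, at -0.34 (edgeR adjusted p = 0.0373). Ppara did not pass in either genotype on the TMM scale, at -0.33 and -0.11, and fell on the epithelial scale, at -1.20 and -1.01. Ppargc1a was at 32.8, 34.3, 25.9 and 31.6 CPM in untreated WT mice and 34.9, 31.2, 33.7 and 42.4 CPM in untreated *MiR-29ab1*-/- mice. It rose in WT mice, by 0.39 (SE 0.139, edgeR adjusted p = 0.0370), and was at -0.14 (SE 0.141, adjusted p = 0.440) in *MiR-29ab1*-/- mice, but relative to epithelial genes it fell in both, at -0.43 (edgeR adjusted p = 0.0397) and -1.04 (adjusted p = 0.000118).

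The PPAR targets outside oxidation, Angptl4, Pdk4 and Plin2, were all higher after DSS on the TMM scale. Angptl4 and Pdk4 were the members with the lowest RPKM in untreated WT mice. Angptl4 was at 6.24, 4.75 and 2.51 CPM in WT mice after DSS and at 3.08, 3.46 and 4.00 CPM in *MiR-29ab1*-/- mice after DSS, against at most 0.642 and 1.30 CPM without it. The estimated log2 fold change was 3.15 (SE 0.491) in WT mice and 2.74 (SE 0.499) in *MiR-29ab1*-/- mice, and 2.31 and 1.84 on the epithelial scale. These are given as a description with no p, because the gene entered the fit only through its high group. Pdk4, which holds pyruvate back from oxidation, was at 6.03, 1.27, 4.57 and 2.19 CPM in untreated WT mice and 18.8, 16.7 and 15.3 CPM after DSS. In *MiR-29ab1*-/- mice it was at 4.21, 5.51, 1.45 and 9.73 CPM without DSS and 12.7, 15.3 and 23.2 CPM after it.

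Pdk4 thus varied several-fold among untreated mice, and its groups did not overlap. The rise was 2.26 (SE 0.544, edgeR adjusted p = 0.00651) in WT mice and 1.71 (SE 0.537, adjusted p = 0.0203) in *MiR-29ab1*-/- mice. The latter was 1.62 (adjusted p = 0.0509) without untreated *MiR-29ab1*-/- mouse 1 and 1.43 (adjusted p = 0.0789) without *MiR-29ab1*-/- DSS mouse 3. On the epithelial scale Pdk4 stood at 1.35 and 0.80, neither past the test. Plin2, which coats lipid droplets, was at 55.7 to 70.0 CPM in untreated WT mice and 51.4 to 66.5 CPM in untreated *MiR-29ab1*-/- mice, and at 170.1, 133 and 119 CPM and 139, 166 and 138 CPM after DSS. It rose by 1.23 (SE 0.130, edgeR adjusted p = 7.73e-06) and 1.30 (SE 0.130, adjusted p = 3.03e-06), and on the epithelial scale by 0.41 and 0.39. On the colonocyte scale it stood at 0.19 (edgeR adjusted p = 0.465) and 0.13 (adjusted p = 0.624), so neither call held.

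Across both genotypes, 24 members rose in each, 1 fell in each (Acsl1) and 28 passed in at least one, with none called in opposite directions. Acsm3, Eci2, Etfb and Ppara passed in neither on the TMM scale. All 4 fell in both genotypes on the epithelial scale, as did 69.2% of all genes in WT mice and 70.6% in *MiR-29ab1*-/- mice, so a fall there is not particular to them. In the fits that left out 1 mouse in turn, 22 of the 26 calls in WT mice and 23 of the 27 in *MiR-29ab1*-/- mice held every time. The others were lost in at least 1 fit (Acat1, Acaa1a, Ehhadh and Ppargc1a in WT mice, and Ehhadh, Eci1, Acaa1b and Pdk4 in *MiR-29ab1*-/- mice). Angptl4 is counted among the 24, the 28, the 22 and the 23. It passed the count filter only through the DSS mice, so its calls lend these counts no weight.

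**Figure D4:**
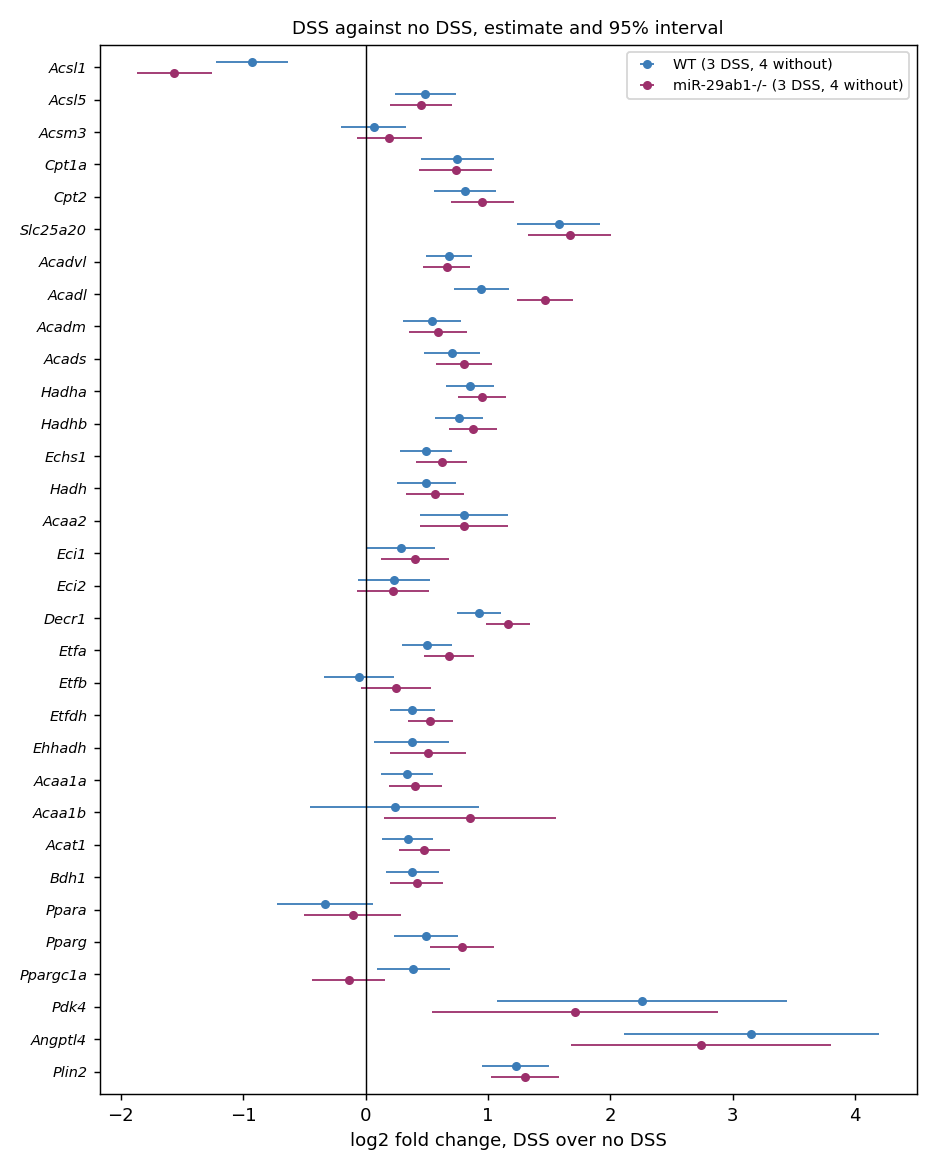
Log2 fold change of DSS over no DSS, on the TMM scale, for each of the 32 genes with its 95% interval in WT (blue) and *MiR-29ab1*-/- mice (purple). Angptl4, Pdk4 and Slc25a20 lie farthest right and Acsl1 alone lies left of 0 in both genotypes with intervals that exclude it. Relative to epithelial genes most members lie below 0, as does the median of all genes, at -0.85 and -0.93.

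**Figure D5:**
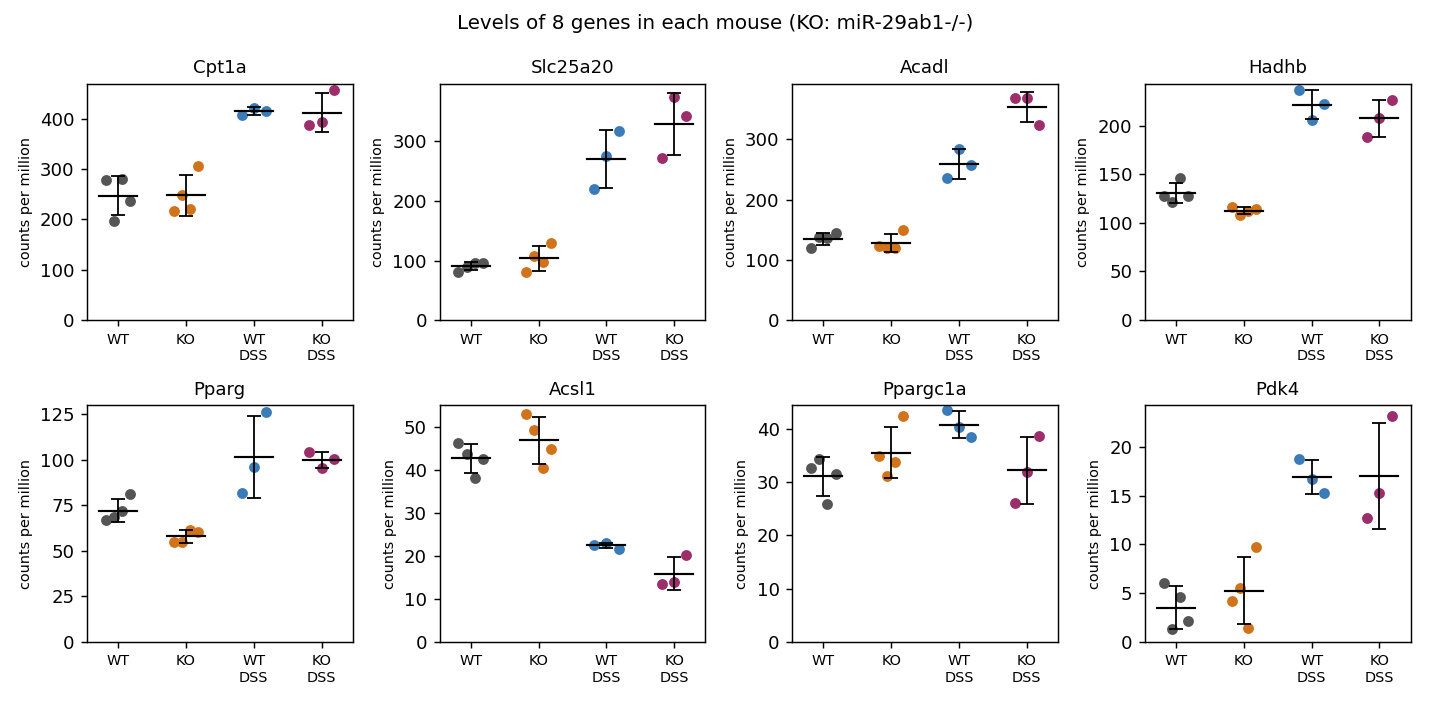
Level of 8 of the genes in each mouse, in CPM, with the mean and SD of each group; KO is *MiR-29ab1*-/-. Cpt1a, Slc25a20, Acadl, Hadhb and Pdk4 are higher in every DSS mouse than in any untreated mouse of the same genotype, Acsl1 is lower, and Acadl after DSS is higher in every KO mouse (325 to 369) than in any WT mouse (235 to 285).

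Whether DSS changed the members differently in the 2 genotypes was asked by the interaction of genotype and DSS. With edgeR, 0 of the 32 members and 0% of all genes passed an adjusted p of 0.05. At an unadjusted p under 0.05 there were 3 members, 1 higher and 2 lower, beside 4.03% of all genes, and DESeq2 gave 0 adjusted calls and the same numbers unadjusted. Acadl stood at 0.52 (SE 0.153, 95% interval 0.20 to 0.85), Acsl1 at -0.63 (SE 0.195, -1.05 to -0.22) and Ppargc1a at -0.53 (SE 0.198, -0.95 to -0.11), each with an edgeR adjusted p of 0.987. For Cpt1a the interval of the interaction ran from -0.44 to 0.41, so a difference between genotypes of that size in either direction was not excluded.

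The rest of the pathway, 86 further genes of fatty acid entry, oxidation, ketone bodies and PPAR signalling of which 69 were tested over the 14 mice, was more divided. On the TMM scale, 28 rose and 7 fell with DSS in WT mice, beside 20.2% and 18.1% of all genes. In *MiR-29ab1*-/- mice 29 rose and 7 fell, beside 23.2% and 22.7% of all genes. In both genotypes 26 rose and 5 fell. Without DSS 67 of these genes passed the count filter, with 11 rather than 12 of entry and activation and 17 rather than 18 PPAR regulators and targets. Some of the 69 may thus have entered the fit only through the DSS mice, as Angptl4 did, and a rise of such a gene lends these counts no weight. Vnn1, a pantetheinase and PPAR target, rose most, by 1.81 (SE 0.352) and 2.92 (SE 0.368), followed in WT mice by the lipid droplet gene Cidec, by 1.25, and the lactate exporter Slc16a3, by 1.21, and in *MiR-29ab1*-/- mice by Cidec, by 1.62, and Creb3l3, a transcription factor of fasting, by 1.34. The monocarboxylate transporter Slc16a7 fell by 1.59 and 2.28, and the fatty acid transporter Slc27a2 by 1.10 and 1.97, joined in WT mice by Slc16a6, which fell by 1.06, and in *MiR-29ab1*-/- mice by Slc27a1, which fell by 1.59. Peroxisomal genes of this list rose in 8 of 13 tested in WT mice and 7 of 13 in *MiR-29ab1*-/- mice, with 0 falling past an adjusted p of 0.05. The other mitochondrial genes rose in 4 and 5 of 17, with 2 falling in each genotype. Genes of entry and activation rose in 5 of 12 and fell in 3 in each. Ketone body genes rose in 4 and 5 of 9 and fell in 2 in each. PPAR regulators and targets rose in 7 of 18 in each, with 0 falling.

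Between genotypes, 0 of these pathway genes passed an adjusted p of 0.05 with edgeR in either experiment. At an unadjusted p under 0.05, 1 of 67 tested was higher and 4 lower without DSS, beside 2.09% and 1.58% of all genes, and 1 of 69 was higher and 5 lower after it, beside 3.98% and 3.25%.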

How the data were processed

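RNA-seq libraries were made from TRIzol-extracted RNA with the NEBNext Ultra Directional kit. The authors deposited 2 tables of raw read counts per gene, 1 for 8 untreated and 1 for 6 DSS-treated mice. The submitters' processing notes name HISAT2 and DESeq2. The counting tool, its strand setting and the genome build are not given in the sources used here. Of the gene identifiers found in GENCODE vM21 (GRCm38), 99.47% had its start and end among the untreated counts (32 members) and 98.33% among the DSS counts (28 members). The 14 FPKM columns and the authors' own fold changes and p-values were not used.

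Counts were tested with edgeR 4.0.16 (limma 3.58.1, R 4.3.3): genes were filtered by group (count minimum 10, total minimum 15), scaled by TMM, fitted with the robust quasi-likelihood method, and adjusted by Benjamini-Hochberg over all genes tested. Each genotype comparison was fitted within its own table, the DSS and interaction comparisons over all 14 mice and the genes both tables share, with no covariate. DSS mice were placed by the group in the column name. Intervals are 95%. The alternatives were DESeq2 1.42.0, RLE factors, other filters, leaving out each mouse, 1 model over all mice, a replicate block and genes of equal length in both tables. No 2 libraries were identical.

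The members and lists were chosen with earlier results of these data known. Values per mouse are given for Cpt1a, for members past an unadjusted p under 0.05 or without overlap between genotypes, and for the 5 largest rises and falls past an adjusted p of 0.05 with DSS. Other pathway genes are given by count, with at most 3 named per direction, and 1 gene that this rule also named is not reported here. On simulated counts with 200 genes changed 2-fold, the test recovered 54% without DSS over 15195 genes, 50% after DSS over 14670 and 54.5% for DSS in WT mice over 16002, and 2.7%, 10.7% and 5.22% of the calls were false. In the data 6270 of 16370 genes were called for DSS in WT mice, so the simulated rates need not hold for that comparison. Sequences were read from RefSeq and GENCODE tables with Python 3.11.15.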

Additional observations from a re-analysis of the deposited data

Results flagged for a closer look

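Over the 66 sets of 4 untreated mice examined (the 32 genes and their sum in each genotype), 7 had 1 mouse far from the other 3, where chance gives about 1 in 20. Acadl was at 149 CPM in *MiR-29ab1*-/- mouse 4 and at 119.96 to 122.5 in the others, and Angptl4 at 1.30 CPM in the same mouse against 0.186 to 0.349. Acaa2 was at 93.8 CPM in *MiR-29ab1*-/- mouse 3 against 102 to 103, and Acaa1a at 120.0 CPM in *MiR-29ab1*-/- mouse 2 against 129.9 to 131. Among WT mice, Acadm was at 107 CPM in mouse 2 against 128 to 131, Bdh1 at 127 CPM in mouse 3 against 151 to 153, and Plin2 at 70.0 CPM in mouse 4 against 55.7 to 57.8. No mouse was left out for these values.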

How the results depend on the processing

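The 0 adjusted calls among members held in the genotype and interaction comparisons under every alternative. Of the 27 single-gene folds, 453 of 482 alternative values kept direction and side of the threshold, 11 lost the call and 18 changed sign. For the values near 0 of Cpt1a the sign turned without 1 mouse: from -0.12 to 0.0797 without DSS, -0.0943 to 0.0312 after DSS and -0.10 to 0.11 for the interaction, and with no filter it was -0.0012 without DSS and with 10 counts in every mouse 0.0020 for the interaction. The Angptl4 difference ranged from -0.226 to 0.144 CPM when 1 untreated mouse was left out. Leaving out 1 mouse moved the median between genotypes from -0.13 to -0.03 without DSS (-0.03 without WT mouse 1) and from -0.08 to 0.03 after DSS, and the medians with DSS from 0.47 to 0.55 in WT mice and from 0.55 to 0.67 in *MiR-29ab1*-/- mice.

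Scaling to the 8 epithelial or 7 colonocyte genes, chosen after the data were seen, turned the medians with DSS to -0.33 and -0.57 in WT mice and -0.26 and -0.51 in *MiR-29ab1*-/- mice. It left 16 calls in *MiR-29ab1*-/- mice on the epithelial scale, where 12218 of all 16370 genes were called. The median interaction was 0.0206 on the colonocyte scale. Cpt1a stood at -0.11 and -0.35 in WT mice and at -0.16 and -0.42 in *MiR-29ab1*-/- mice. Acadl stood at -0.11 in WT mice on the colonocyte scale. These shifts follow from the scaling itself.

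With the replicate block, the untreated comparison gave 0 adjusted member calls and a median of -0.09, with 2 members rather than 3 at an unadjusted p under 0.05. Same-numbered mice correlated at -0.03, 0.15, -0.19 and -0.13 in their deviations, so the numbers were not read as pairs. For DSS mice no block was run, because the columns do not carry the labels' numbers. Over all genes, edgeR called 3 genes between genotypes without DSS and 2 after DSS, DESeq2 called 23 and 59, no filter gave 11 and 46, and 10 counts in every mouse gave 0 and 0. Without *MiR-29ab1*-/- DSS mouse 3 edgeR called 93 genes after DSS, and without the other DSS mice 0 to 2. Few counts limit Angptl4, Pdk4 and Acaa1b.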
